A study of Mus musculus with 6 samples.

Results

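The 10 airway secretory cell markers described here are Scgb1a1, Scgb3a2, Cyp2f2, Cbr2, Lypd2, Hp, Gsta3, Upk3a, Selenbp1 and Muc5b, chosen by name from the 27179 genes counted in embryonic mouse lung epithelium with and without the transcription factor Grhl2. Each symbol was matched to 1 Entrez identifier, all 10 were in the table, and all 10 passed the filter on low counts that left 14842 genes for testing. They were chosen with earlier results of these data known. Messenger RNA had been sequenced from EpCAM-positive cells sorted from lungs of E16.5 embryos, in 6 libraries. Grhl2_cKO libraries (replicates 1, 5 and 10) had the genotype Shh-Cre;Grhl2f/-, with 1 floxed Grhl2 allele and 1 allele that the labels mark with a minus. Control libraries (replicates 1, 3 and 7) had the genotype Shh-Cre;Grhl2f/+, with 1 floxed and 1 intact allele. Every sample of both genotypes therefore carried Shh-Cre, which expresses Cre recombinase from the Sonic hedgehog locus and acts in the lung epithelium, and the controls stood for cells that keep 1 intact Grhl2 allele rather than for cells without deletion. Each genotype had 2 male libraries and 1 female library, the female ones being Grhl2_cKO replicate 1 and control replicate 7. The labels do not say whether a sample was 1 embryo or a pool, so the p-values given here reflect only how far these samples vary.

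Secretory cells, which include club cells and goblet cells, line the conducting airways beside ciliated cells. They release small proteins and mucins onto the airway surface, and they carry cytochrome P450 and other enzymes that convert inhaled and blood-borne chemicals. They begin to form in the developing airways under Notch signalling, and many of their products are still scarce before birth. Grhl2 belongs to the grainyhead family of DNA-binding factors, which maintain epithelial junctions and epithelial gene expression.

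Promoter sequences were looked up because the markers lay mostly on one side of control, and the motifs searched were those of the deleted factor and of 2 lung regulators. RefSeq (GRCm38.p6) windows of 250 bases before to 50 bases after the gene start were found for 5 of the 10 markers: Cbr2, Cyp2f2, Gsta3, Selenbp1 and Upk3a. Both strands were searched for AACCGGTT and AACNGGTT, the grainyhead consensus in its exact form and with 1 free base, which contains the exact form. CAAGTG (the Nkx2-1 core) and TGTTTAC (forkhead factors) were searched as well. AACCGGTT stood in 0.146% of the 32851 promoters of the table and in none of the 5, and AACNGGTT stood in 2.09% of all and in that of Gsta3. CAAGTG stood in 13.6% of all promoters and in those of Cyp2f2, Gsta3 and Selenbp1, and TGTTTAC stood in 3.65% of all and in none of the 5. The windows shown are that of the marker among the 5 that passed the test below (Cbr2), that of its fellow enzyme gene (Cyp2f2), and that with the grainyhead-type match (Gsta3). Capitals mark the matches to CAAGTG in either orientation and, in Gsta3, also the match to AACNGGTT. In the Gsta3 window the AACNGGTT match begins at base -192 and the CAAGTG match at base -243, counted from the gene start. In the Cyp2f2 window the CAAGTG match begins at base -191. The Cbr2 window, like that of Upk3a, held none of the 4 motifs. These matches describe letters within the windows and are no measurement of binding.
Cbr2, chr11:120731972-120732271, minus strand: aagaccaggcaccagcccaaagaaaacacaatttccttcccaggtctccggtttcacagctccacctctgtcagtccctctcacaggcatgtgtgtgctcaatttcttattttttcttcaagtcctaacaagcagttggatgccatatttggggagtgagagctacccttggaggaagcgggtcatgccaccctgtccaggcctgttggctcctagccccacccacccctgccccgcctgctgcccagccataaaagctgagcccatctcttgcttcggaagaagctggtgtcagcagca
Cyp2f2, chr7:27119705-27120004, plus strand: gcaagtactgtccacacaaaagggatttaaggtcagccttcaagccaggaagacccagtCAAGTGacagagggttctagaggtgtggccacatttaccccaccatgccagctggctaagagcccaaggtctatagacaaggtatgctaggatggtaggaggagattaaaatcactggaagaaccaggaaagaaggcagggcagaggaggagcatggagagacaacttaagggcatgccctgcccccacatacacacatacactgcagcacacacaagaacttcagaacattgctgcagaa
Gsta3, chr1:21240335-21240634, plus strand: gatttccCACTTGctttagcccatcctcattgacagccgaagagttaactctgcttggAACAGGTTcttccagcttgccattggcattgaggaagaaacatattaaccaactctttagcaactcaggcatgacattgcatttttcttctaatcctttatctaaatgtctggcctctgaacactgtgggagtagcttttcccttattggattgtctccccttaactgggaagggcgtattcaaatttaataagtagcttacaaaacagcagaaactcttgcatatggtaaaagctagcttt

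The libraries held 13472216 to 17228762 counts. Grhl2 itself had 105, 109 and 115 CPM (counts scaled to a common library size, by TMM) in Grhl2_cKO replicates 1, 5 and 10, against 149, 148 and 146 CPM in control replicates 1, 3 and 7. Its log2 fold change was -0.43 ± 0.05 (± SE, 3 libraries per group), with an adjusted p = 0.00204 by the quasi-likelihood test of edgeR, adjusted by Benjamini-Hochberg over all genes tested as for every edgeR value given here. The counts are sums over the whole gene, so transcripts from outside the floxed part can remain. Epcam, which encodes the sorted surface protein, had 335, 346 and 402 CPM in Grhl2_cKO replicates 1, 5 and 10, against 558, 543 and 501 CPM in the controls (log2 fold change -0.56 ± 0.08, adjusted p = 0.00527, edgeR). Nkx2-1, the defining transcription factor of lung epithelium, had 673, 805 and 622 CPM in Grhl2_cKO libraries and 597, 658 and 784 CPM in controls, which overlapped.

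All 10 markers had fold changes below 0, as did 51.5% of all genes tested, and their median log2 fold change was -1.01, or 49.7% of the control level, against a median of -0.00 over all genes tested. At an edgeR adjusted p under 0.05, Lypd2 and Cbr2 fell and no marker rose, so that 2 of 10 were called lower, against 2.38% of all genes tested, and 0 of 10 higher, against 1.21%. At an unadjusted p under 0.05 the counts were 8 lower and 0 higher, and 13.3% of all genes passed that level in either direction. For 6 markers (Scgb3a2, Cyp2f2, Cbr2, Lypd2, Upk3a and Muc5b) each Grhl2_cKO library lay below each control library, as for 9.89% of all genes tested. With DESeq2 4 markers were called lower (2.85% of all genes) and 0 higher, and with limma-voom 3 lower (2.41%) and 0 higher. With no filter on low counts edgeR called 6 lower (2.07%), and with robust fitting it called 1 (2.59%). In bulk RNA of this kind, fewer secretory cells and less of each transcript per secretory cell cannot be told apart.

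**Figure D1:**
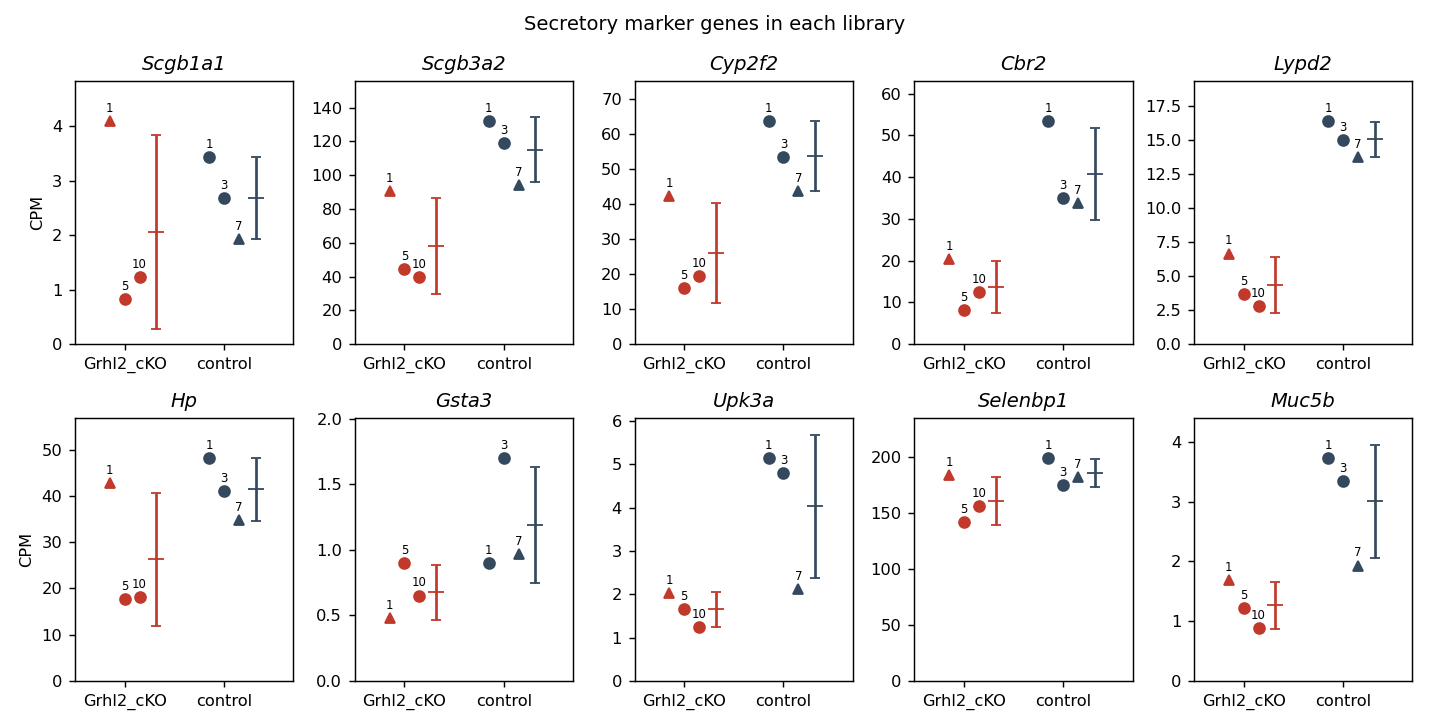
Level of each marker in each library, in CPM on a linear axis from 0, with Grhl2_cKO on the left of each panel and control on the right. Circles are male and triangles female libraries, numbers beside the points are replicates, and bars give the mean and SD of 3 libraries. Grhl2_cKO replicate 1 is the highest knockout library in 9 of the 10 panels.

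The secretoglobins are small secreted proteins of the airway lining. Scgb3a2 (chr18:43764301-43767399, mm10, as for all positions of genes given here), which appears early in the developing airway, had 90.8, 44.3 and 39.6 CPM in Grhl2_cKO replicates 1, 5 and 10, against 132, 119 and 94.1 CPM in control replicates 1, 3 and 7. The groups did not overlap, but Grhl2_cKO replicate 1 lay close to the lowest control, replicate 7. The log2 fold change of Scgb3a2 was -0.98 ± 0.26 (± SE, 3 libraries per group), and the edgeR adjusted p of 0.0828 did not pass. Scgb1a1 (chr19:9083642-9087956), the main secreted protein of mature club cells, had 4.09, 0.834 and 1.24 CPM in Grhl2_cKO libraries, from 68, 13 and 21 counts. In controls it had 3.43, 2.68 and 1.93 CPM, from 46, 44 and 30 counts. Grhl2_cKO replicate 1 was the highest of the 6 libraries for Scgb1a1 and replicates 5 and 10 were the lowest, and the log2 fold change over the groups was -0.37 ± 0.49 (adjusted p = 0.896, edgeR). This value rested on single knockout libraries: without Grhl2_cKO replicate 1 it was -1.34 ± 0.35, or 39.4% of control (adjusted p = 0.0855, edgeR), and without Grhl2_cKO replicate 5 it was -0.00 ± 0.45. A further secretoglobin, Scgb3a1, had 2, 0 and 0 counts in Grhl2_cKO libraries and 0, 0 and 3 counts in controls, too few to test.

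Among the enzymes, Cbr2 fell. Cbr2 (chr11:120729485-120732025) encodes a carbonyl reductase abundant in mouse lung, and it had 20.3, 8.08 and 12.5 CPM in Grhl2_cKO replicates 1, 5 and 10, against 53.4, 34.9 and 33.8 CPM in control replicates 1, 3 and 7. Its closest relative by transcript sequence was Gm11771, at 89% identity over 736 bases. The highest knockout library lay below the lowest control, and the fold change left 33.7% of the control level (log2 fold change -1.57 ± 0.28, ± SE, 3 libraries per group; adjusted p = 0.0141, edgeR). That call was lost without Grhl2_cKO replicate 10, where the adjusted p was 0.0713, and with robust quasi-likelihood fitting, where it was 0.168. Cyp2f2 (chr7:27119955-27133660), a cytochrome P450 that turns naphthalene into a form toxic to club cells, had 42.4, 16.1 and 19.6 CPM in Grhl2_cKO libraries, against 63.7, 53.5 and 43.7 CPM in controls. Its transcript of 1866 bases matched Gm15883 at 100% identity over 142 bases, so counts from that stretch are uncertain. The groups again did not overlap, with Grhl2_cKO replicate 1 just below control replicate 7. The log2 fold change of Cyp2f2 was -1.04 ± 0.30, and the edgeR adjusted p of 0.105 did not pass. Gsta3 (chr1:21240565-21265575), a glutathione transferase, had few counts, with 8, 14 and 11 counts in Grhl2_cKO libraries and 12, 28 and 15 counts in controls. Its levels of 0.481, 0.898 and 0.651 CPM in Grhl2_cKO libraries overlapped the control levels of 0.896, 1.7 and 0.967 CPM (log2 fold change -0.83 ± 0.38, adjusted p = 0.389, edgeR).

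Lypd2 showed the most negative fold change of the 10 markers. Lypd2 (chr15:74732246-74734795) encodes a small membrane-anchored protein of the Ly6/uPAR family, and it had 6.67, 3.66 and 2.78 CPM in Grhl2_cKO replicates 1, 5 and 10, against 16.4, 15 and 13.8 CPM in control replicates 1, 3 and 7. The 3 controls lay close together and all 3 knockout libraries lay well below them. The level left was 29.1% of control (log2 fold change -1.78 ± 0.25, ± SE, 3 libraries per group; adjusted p = 0.00377, edgeR), and Lypd2 was called in 16 of 16 alternative analyses, with adjusted p from 1.28e-11 to 0.0197. Upk3a (chr15:85017141-85022560), a uroplakin found on a subset of club cells beside neuroendocrine bodies, had 2.04, 1.67 and 1.24 CPM in Grhl2_cKO libraries, from 34, 26 and 21 counts. In controls Upk3a had 5.15, 4.81 and 2.13 CPM, from 69, 79 and 33 counts, so that control replicate 7 lay beside Grhl2_cKO replicate 1. The log2 fold change of Upk3a was -1.28 ± 0.34 (adjusted p = 0.0809, edgeR), and without control replicate 7 it was -1.59 with an adjusted p of 0.0133. Leaving out any other single library gave Upk3a an edgeR adjusted p of 0.11 to 0.282. Lypd2 and Upk3a are on chromosome 15, as Grhl2 is, at 37.4 and 47.7 Mb from it. Of 567 tested genes of that chromosome 21 were called, or 3.7%, against 3.59% of all genes.

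Of the secreted products, Muc5b (chr7:141839059-141873089) encodes the main gel-forming mucin of the airways. It had 1.68, 1.22 and 0.887 CPM in Grhl2_cKO replicates 1, 5 and 10, from 28, 19 and 15 counts, against 3.73, 3.35 and 1.93 CPM in control replicates 1, 3 and 7, from 50, 55 and 30 counts. The groups did not overlap, with control replicate 7 again next to Grhl2_cKO replicate 1. The log2 fold change of Muc5b was -1.24 ± 0.32 (± SE, 3 libraries per group, adjusted p = 0.0727, edgeR), and without control replicate 7 the adjusted p was 0.0379. Leaving out any other single library gave Muc5b an edgeR adjusted p of 0.0658 to 0.243. Muc5ac, the other gel-forming airway mucin and 19831 bases away, had 2.64, 1.67 and 2.43 CPM in Grhl2_cKO libraries and 2.54, 2.19 and 2.19 CPM in controls (log2 fold change -0.03 ± 0.24, adjusted p = 0.991, edgeR). Hp (chr8:109575128-109579172) encodes haptoglobin, which binds free haemoglobin, and it had 42.8, 17.8 and 18.2 CPM in Grhl2_cKO libraries, against 48.2, 41.1 and 34.8 CPM in controls. Grhl2_cKO replicate 1 lay among the controls for Hp, whereas replicates 5 and 10 lay well below them, and the log2 fold change was -0.65 ± 0.29 (adjusted p = 0.374, edgeR).

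Selenbp1 (chr3:94933083-94944758), a selenium-binding protein and methanethiol oxidase, lay closest to control. It had 184, 142 and 156 CPM in Grhl2_cKO replicates 1, 5 and 10, against 199, 175 and 182 CPM in control replicates 1, 3 and 7. Its log2 fold change was -0.21 ± 0.09 (± SE, 3 libraries per group; adjusted p = 0.365, edgeR). The transcript of Selenbp1 shares 98.5% of 1712 bases with Selenbp2, so counts of this pair are uncertain. Selenbp2 had 13.8, 13.9 and 12.8 CPM in Grhl2_cKO libraries and 13.2, 12.7 and 13.7 CPM in controls.

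Per kilobase of transcript, the markers covered a wide range of levels. Scgb3a2 had 69.2 ± 33.6 CPM per kilobase in Grhl2_cKO libraries and 137 ± 22.8 in controls (SD, n = 3 each), and Selenbp1 had 95.3 ± 12.8 in Grhl2_cKO libraries and 110 ± 7.52 in controls. These 2 led the list, and in each genotype their ranges overlapped. A middle group of 4 followed, with control means of 39.8 ± 10.8 CPM per kilobase for Cbr2, 30.7 ± 4.96 for Hp, 30.6 ± 2.6 for Lypd2 and 29.5 ± 5.5 for Cyp2f2. Neighbours within this group overlapped in the controls, and none of the 4 overlapped Selenbp1 or Scgb1a1 there. In Grhl2_cKO libraries the order of the 4 by mean was Hp (19.6 ± 10.6 CPM per kilobase), Cyp2f2 (14.3 ± 7.85), Cbr2 (13.3 ± 6.06) and Lypd2 (8.88 ± 4.14), with overlapping neighbours. Scgb1a1 had 4.39 ± 3.78 CPM per kilobase in Grhl2_cKO libraries and 5.73 ± 1.6 in controls, and Upk3a had 1.49 ± 0.362 in Grhl2_cKO libraries and 3.64 ± 1.5 in controls. Gsta3 (0.467 ± 0.145 in Grhl2_cKO libraries and 0.82 ± 0.308 in controls) and Muc5b (0.0844 ± 0.0267 in Grhl2_cKO libraries and 0.201 ± 0.0633 in controls) were the lowest.

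One knockout library, replicate 1, lay between the groups. It was above both other Grhl2_cKO libraries for 9 of the 10 markers, Gsta3 being the exception, where 32% of all genes tested had that order. On the log2 scale its median distance from the control mean was -0.53 over the 10 markers, or 69% of control. The same median was -1.28 (41.3%) for Grhl2_cKO replicate 5 and -1.47 (36.2%) for replicate 10. As a share of the control mean, Hp stood at 104%, 43.1% and 44.1% in Grhl2_cKO replicates 1, 5 and 10. Scgb3a2 stood at 78.9%, 38.5% and 34.4%, and Lypd2 at 44.3%, 24.3% and 18.5%. Replicate 1 was below all 3 controls for 7 of the 10 markers, where 26.4% of all genes tested had that place. Replicate 5 was below all controls for 9 markers, against 27.6% of all genes, and replicate 10 for all 10 markers, against 29.7% of all genes. Grhl2 did not have this order, since replicate 1 had the lowest Grhl2 level of the 3 knockout libraries. The intermediate place was not confined to the secretory markers. Of the 336 genes called lower in the fit without replicate 1, 79.5% were above both other Grhl2_cKO libraries in replicate 1 and 97.6% were below all controls there, with a median of 64.4% of control in replicate 1 and of 50.4% in the other 2 libraries. For the genes called lower without replicate 5 the share above both others in replicate 5 was 18.8% of 165, and for replicate 10 it was 26.3% of 167. In the left-out library the medians of these 2 sets were 46.9% and 49.9% of control, with 100% and 98.8% below all controls. Each set was picked by low levels in the other 2 knockout libraries against the same controls. A place below the controls is therefore partly due to that choice. In each set the choice also favours a place above both others, and a median nearer to control, in the left-out library. The set of 336 includes 5 markers.

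**Figure D2:**
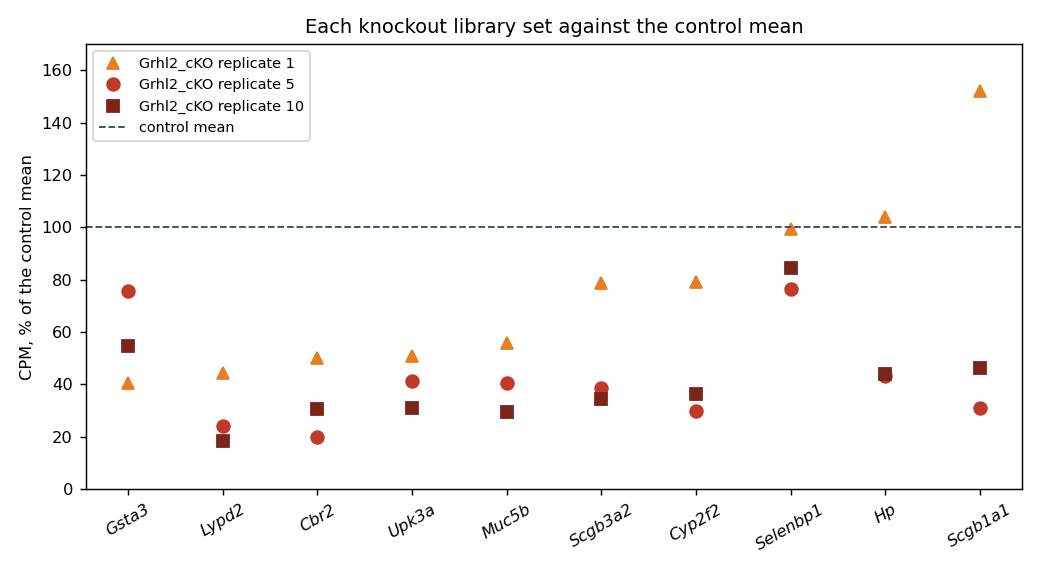
Level of each marker in the 3 Grhl2_cKO libraries as a percent of the control mean, which is the dashed line at 100%. Replicate 1 (triangles) is the highest of the 3 for 9 markers, reaches 152% for Scgb1a1 and 104% for Hp, and is the lowest for Gsta3.

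Without replicate 1, 5 markers were called lower (Cbr2, Cyp2f2, Hp, Lypd2 and Scgb3a2), against 2.24% of all genes tested in that fit. Scgb3a2 then had a log2 fold change of -1.46 ± 0.14 (n = 2 Grhl2_cKO and 3 control libraries; adjusted p = 0.000618, edgeR), Cyp2f2 of -1.58 (adjusted p = 0.00109, edgeR) and Hp of -1.19 (adjusted p = 0.00208, edgeR). Without replicate 10, 1 marker was called, Lypd2, against 1.11% of all genes, and without replicate 5 the 2 calls were Cbr2 and Lypd2, against 1.1%. Leaving out control replicate 7, which was the lowest control for 8 of the 10 markers, gave 4 calls (Cbr2, Lypd2, Muc5b and Upk3a), against 1.56% of all genes.

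Grhl2_cKO replicate 1 and control replicate 7 are also the 1 female library of each genotype. Between these 2 libraries, Scgb3a2 had 90.8 CPM in Grhl2_cKO and 94.1 CPM in control, Cyp2f2 had 42.4 CPM in Grhl2_cKO and 43.7 CPM in control, and Hp had 42.8 CPM in Grhl2_cKO and 34.8 CPM in control. Scgb1a1 had 4.09 CPM in Grhl2_cKO and 1.93 CPM in control. Other markers were lower in the knockout library of this pair as well: Lypd2 had 6.67 CPM in Grhl2_cKO and 13.8 CPM in control, and Cbr2 had 20.3 CPM in Grhl2_cKO and 33.8 CPM in control. The knockout level in the pair was 49.7% of control for Gsta3, 87% for Muc5b, 96% for Upk3a and 101% for Selenbp1. With 1 library per genotype these values have no replicate check. In the male libraries, 2 per genotype, the knockout level was 33.4% of control for Scgb3a2, 30.4% for Cyp2f2 and 40.4% for Hp. A fit of the male libraries alone called 8 markers lower, all but Gsta3 and Selenbp1, where 1.99% of all genes tested were called lower. In that fit Scgb3a2 had a log2 fold change of -1.58 ± 0.10 (adjusted p = 3.45e-05, edgeR) and Scgb1a1 of -1.53 ± 0.34 (adjusted p = 0.0469, edgeR). The genotype difference in the female pair minus that in the male libraries was 1.53 ± 0.16 (log2, SE) for Scgb3a2, 1.67 ± 0.22 for Cyp2f2 and 1.60 ± 0.19 for Hp, each with an edgeR adjusted p of 0.0304. Since the female pair has 1 library per genotype, the spread in this test came from the male libraries and the female ones were assumed to vary like them. The SE and adjusted p therefore apply to this pair of libraries and do not test a difference between the sexes. These 3 were among 17 genes called for that interaction, 0.115% of all genes tested, and with no filter on low counts 6 markers were called, against 0.568% of all genes. Of the other 14, 4 were in the list of heart muscle genes (Actc1, Myh6, Myl4 and Myl7), 5 in that of mesenchyme genes (Col1a1, Col1a2, Col3a1, Dcn and Postn), 1 in that of nerve genes (Stmn2) and 4 in no list (Dpt, Fndc1, Mfap4 and Sulf1). With 1 female library per genotype, sex and the particular library cannot be told apart. The interaction was fitted because the knockout library seen between the groups was the female one. It is therefore no independent check of that pattern.

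**Figure D3:**
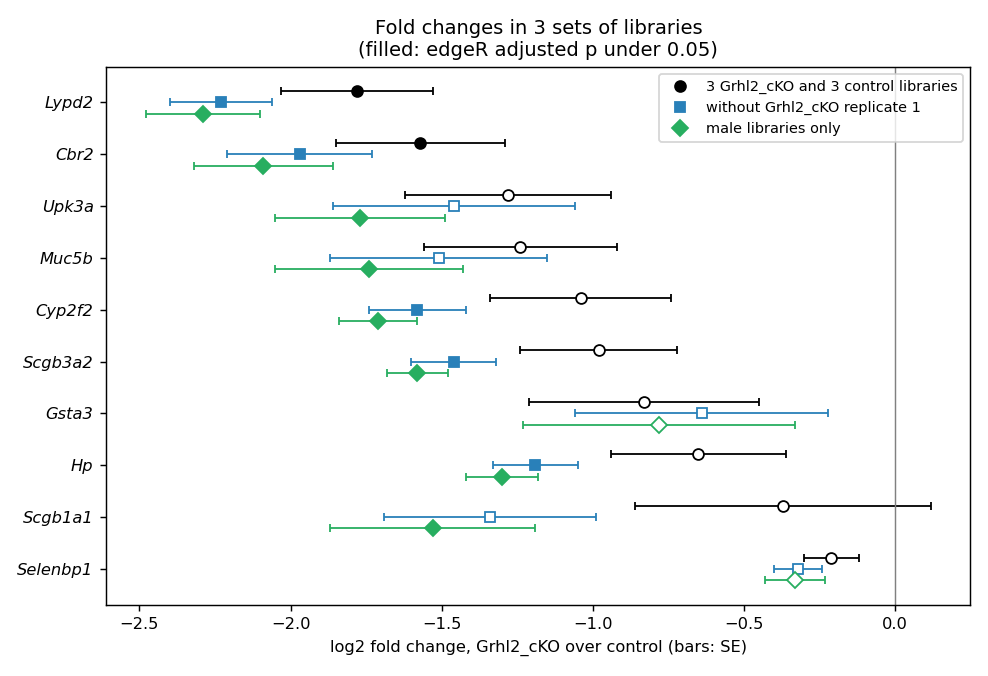
Log2 fold change of each marker, Grhl2_cKO over control, with its SE, from 3 sets of libraries: all 6, those without Grhl2_cKO replicate 1, and the male libraries only. Filled symbols have an edgeR adjusted p under 0.05: 2 markers with all libraries, 5 without replicate 1 and 8 in male libraries.

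Proportions between markers within a library do not depend on its depth. Lypd2 had 7.35, 8.25 and 7.03 counts per 100 counts of Scgb3a2 in Grhl2_cKO replicates 1, 5 and 10, against 12.4, 12.6 and 14.7 in control replicates 1, 3 and 7. This proportion was alike in the 3 knockout libraries, replicate 1 included, and lower in each of them than in any control. Cyp2f2 had 46.7, 36.3 and 49.5 counts per 100 of Scgb3a2 in Grhl2_cKO libraries and 48.3, 44.9 and 46.4 in controls, which overlapped. Cbr2 had 22.4, 18.2 and 31.5 counts per 100 of Scgb3a2 in Grhl2_cKO libraries and 40.5, 29.2 and 35.9 in controls, which overlapped too. Hp went the other way relative to Cyp2f2, with 101, 111 and 93.1 counts per 100 of Cyp2f2 in Grhl2_cKO libraries and 75.6, 76.7 and 79.8 in controls. Of the 45 pairs of markers, 15 had proportions that did not overlap between genotypes, 6 of them with Lypd2. These pairs share genes and libraries, and the share over pairs of other genes was not computed. The count of 15 therefore cannot be read as a trait of these markers. With 3 libraries against 3, a two-sided exact permutation test of 1 such proportion cannot give a p below 0.1.

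**Figure D4:**
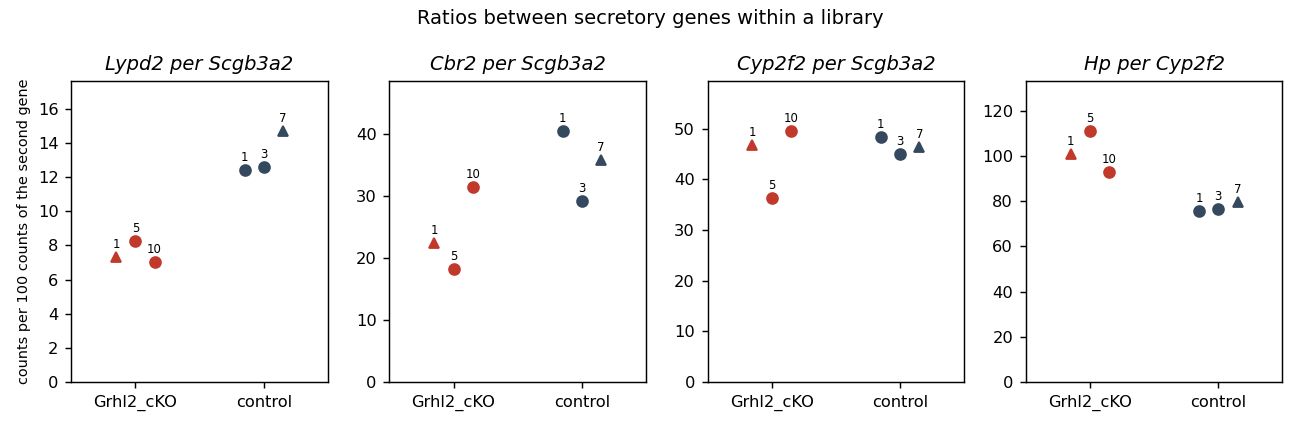
Counts of one marker per 100 counts of another in each library, with Grhl2_cKO left of control in each panel and replicate numbers beside the points. Lypd2 per Scgb3a2 is lower in all 3 Grhl2_cKO libraries (7.03 to 8.25) than in the controls (12.4 to 14.7), and Cyp2f2 per Scgb3a2 overlaps.

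Other genes of secretory airway cells moved less uniformly. Of 35 listed, 20 were tested, 7 fell (Aldh1a1, Aldh1a7, Cckar, Creb3l1, Dcxr, Lyz1 and Nupr1), 1 rose (Retnla), and the median was 75.7% of control. Aldh1a7, an aldehyde dehydrogenase, had 191, 147 and 159 CPM in Grhl2_cKO replicates 1, 5 and 10, against 344, 336 and 316 CPM in control replicates 1, 3 and 7 (50% of control, adjusted p = 0.000339, edgeR). Aldh1a1, a retinaldehyde dehydrogenase beside it on chromosome 19, had 35.4, 27.5 and 28.2 CPM in Grhl2_cKO libraries, against 62.2, 56.7 and 54 CPM in controls (log2 fold change -0.92 ± 0.11, adjusted p = 0.00124, edgeR). In both, all knockout libraries lay well below all controls, replicate 1 highest among them. Retnla, a secreted resistin-like protein, had 69.2, 45.2 and 47.3 CPM in Grhl2_cKO libraries, against 30.4, 29.2 and 28.1 CPM in controls (log2 fold change 0.88 ± 0.15, adjusted p = 0.00967, edgeR), and its highest knockout library was again replicate 1. Dcxr, a carbonyl reductase gene 2200 bases from Cbr2, stood at 61.8% of control (adjusted p = 0.021, edgeR). The number called lower was 2 or 3 when Grhl2_cKO replicate 5 or replicate 10 was left out, 3 when control replicate 3 was left out and 4 when control replicate 7 was, and Dcxr was among the calls lost without Grhl2_cKO replicate 5 (adjusted p = 0.0767) or 10 (adjusted p = 0.0936). Goblet cell genes were scarce, with Bpifa1, Clca1 and Itln1 at 0 counts in each library, and Bpifb1 at 0, 0 and 1 counts in Grhl2_cKO libraries and 8, 7 and 4 in controls. The goblet regulator Spdef had a log2 fold change of -0.59 ± 0.18 (adjusted p = 0.148, edgeR). Foxa3 of the same list went the other way, with 3.42, 3.02 and 4.08 CPM in Grhl2_cKO libraries. It had 2.09, 2.49 and 2.19 CPM in controls (log2 fold change 0.63 ± 0.20, adjusted p = 0.16, edgeR). Fcgbp had a log2 fold change of 0.05 ± 0.21 (adjusted p = 0.983, edgeR) and Agr2 of -0.45 ± 0.37 (adjusted p = 0.755, edgeR).

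The wider set of xenobiotic enzymes did not follow Cbr2 and Cyp2f2 as a whole. Of 29 listed, 21 were tested, 2 fell and 0 rose, and the median level was 91.2% of control; at an unadjusted p under 0.05, 4 were lower and 0 higher, and DESeq2 and limma-voom each called 2 lower and 0 higher. The carboxylesterase Ces1d had 72.9, 45.4 and 53.3 CPM in Grhl2_cKO replicates 1, 5 and 10, against 142, 129 and 109 CPM in control replicates 1, 3 and 7 (log2 fold change -1.14 ± 0.15, adjusted p = 0.00308, edgeR). The glutathione transferase Gstm2 had 12.6, 12.5 and 13.7 CPM in Grhl2_cKO libraries, against 19.9, 21.4 and 19 CPM in controls (log2 fold change -0.63 ± 0.10, adjusted p = 0.00563, edgeR). Gstm2 had no raised value in replicate 1, unlike Ces1d. Gsto1 had a log2 fold change of -0.40 ± 0.14 (adjusted p = 0.216, edgeR), and Gsta4, a relative of Gsta3, of -0.16 ± 0.09 (adjusted p = 0.594, edgeR).

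Relatives of Upk3a, Muc5b and Lypd2 were tested where their counts allowed. Of 11 other mucins and uroplakins, 7 were tested and edgeR called 0; at an unadjusted p under 0.05 there were 2 lower and 0 higher, DESeq2 called 2 lower, and limma-voom called 1. Upk2, a second uroplakin, had 0.481, 0.0642 and 0.177 CPM in Grhl2_cKO replicates 1, 5 and 10 (8, 1 and 3 counts), against 1.42, 0.852 and 1.1 CPM in control replicates 1, 3 and 7 (19, 14 and 17 counts). All knockout libraries were below all controls, with a log2 fold change of -2.15 ± 0.52 (adjusted p = 0.0557, edgeR). Muc1, a membrane mucin, had a log2 fold change of -0.31 ± 0.09 (adjusted p = 0.118, edgeR), and Upk1b of -0.48 ± 0.29 (adjusted p = 0.592, edgeR). Of 13 Ly6 and Lypd genes, 5 were tested and edgeR, DESeq2 and limma-voom each called 0, with 1 lower and 1 higher at an unadjusted p under 0.05. Slurp1, which lies 4222 bases from Lypd2, had 7, 2 and 2 counts in Grhl2_cKO libraries and 13, 12 and 9 counts in controls, too few to test. Lynx1, 13060 bases from Lypd2, had 9.43, 7.06 and 6.92 CPM in Grhl2_cKO libraries, against 10.8, 9.61 and 10.7 CPM in controls (log2 fold change -0.41 ± 0.15, adjusted p = 0.217, edgeR). Ly6c1 had a log2 fold change of 0.56 ± 0.16 (adjusted p = 0.0954, edgeR) and Lypd6 of -0.36 ± 0.20 (adjusted p = 0.559, edgeR).

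Of 28 regulators of airway and secretory fate, 2 fell and 0 rose, and the median level was 98.7% of control. At an unadjusted p under 0.05, 7 were lower and 1 higher; DESeq2 called 4 lower and 0 higher, and limma-voom 2 lower and 0 higher. Elf5, an ETS factor, had 51.4, 34.1 and 34.6 CPM in Grhl2_cKO replicates 1, 5 and 10, against 145, 144 and 143 CPM in control replicates 1, 3 and 7 (log2 fold change -1.84 ± 0.13, adjusted p = 7.17e-05, edgeR). The controls were almost equal, and replicate 1 was the highest knockout library. Cebpa, a factor of lung epithelial maturation, had 91.3, 72.2 and 77.5 CPM in Grhl2_cKO libraries, against 110, 104 and 114 CPM in controls (log2 fold change -0.44 ± 0.08, adjusted p = 0.019, edgeR). The call on Cebpa was lost without Grhl2_cKO replicate 5 (adjusted p = 0.0698), Grhl2_cKO replicate 10 (0.0835) or control replicate 7 (0.0654). Notch3, a Notch receptor, had a log2 fold change of -0.31 ± 0.07 (adjusted p = 0.0518, edgeR). Sox2, the factor that defines the conducting airway, had 16.7, 15 and 13.8 CPM in Grhl2_cKO libraries and 18.5, 14.2 and 14.8 CPM in controls (log2 fold change -0.05 ± 0.13, adjusted p = 0.959, edgeR).

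Markers of the other cell types in the sort were set beside these results. Of 24 tested ciliated cell markers 14 fell, with a median of 45.9% of control, and 22 of the 24 were higher in Grhl2_cKO replicate 1 than in both other knockout libraries. The number of ciliated markers called lower was 6 when Grhl2_cKO replicate 5 was left out, 5 when replicate 10 was and 9 when control replicate 3 was. Their summed level was 222 to 280 CPM in Grhl2_cKO libraries and 348 to 425 CPM in controls. The summed level of the 12 type 2 alveolar markers was 19201 to 23194 CPM in Grhl2_cKO libraries and 19779 to 21848 CPM in controls, with 1 of 12 called lower (Sftpd), a call lost when Grhl2_cKO replicate 5 or 10, or control replicate 3 or 7, was left out. Of 11 type 1 alveolar markers 2 were called higher (Col4a3 and Igfbp2), of which only Col4a3 was still called when any of the libraries other than Grhl2_cKO replicate 1 was left out. The neuroendocrine marker Insm1 was called higher (227% of control, adjusted p = 0.0222, edgeR), and its call was likewise lost when Grhl2_cKO replicate 5 or 10, or control replicate 3 or 7, was left out. Heart muscle markers summed to 474, 237 and 229 CPM in Grhl2_cKO replicates 1, 5 and 10 and to 209, 175 and 183 CPM in control replicates 1, 3 and 7. Much of these sums was Myh7, with 200, 191 and 196 CPM in Grhl2_cKO libraries and 146, 138 and 139 CPM in controls. The median over the 12 tested heart markers was 658%, 106% and 62.8% of control in Grhl2_cKO replicates 1, 5 and 10. All 12 tested heart markers were higher in Grhl2_cKO replicate 1 than in both other knockout libraries, while the ventricular gene Myl2 was at 0 in each library. In the comparison of genotypes 1 heart marker (Myh7) and 1 nerve marker (Tubb3) were called higher, and Tubb3 was lost without Grhl2_cKO replicate 1 (adjusted p = 0.056, edgeR), Grhl2_cKO replicate 5, control replicate 3 or control replicate 7. Mesenchyme markers summed to 2581, 1595 and 1865 CPM in Grhl2_cKO libraries and to 2225, 1890 and 1533 CPM in controls. The nerve markers summed to 20.4, 10.5 and 10.7 CPM in Grhl2_cKO libraries and to 11.2, 10.4 and 8.9 CPM in controls. With all 6 libraries and the filter on low counts, edgeR called no marker of the mesenchyme, endothelium, blood, mesothelium, basal, distal tip or foregut lists. In the male libraries only, 2 mesenchyme and 2 mesothelium markers were called lower, and without Grhl2_cKO replicate 1 a mesothelium marker (Msln) was called lower. These are the fits with 8 and 5 secretory markers called lower, and the part of these other markers in the secretory values was not tested. With no filter 1 mesothelium marker was called lower and 1 distal tip marker higher, and without control replicate 3 a basal marker was called lower. At an unadjusted p under 0.05, distal tip had 3 higher, mesenchyme and endothelium 1 higher each, mesothelium 1 lower and foregut 2 lower, and DESeq2 called 1 distal tip marker higher while limma-voom called 0 in these lists. Thus the library with the highest secretory levels among the knockouts also held the most heart muscle, mesenchyme and nerve RNA, and the part of this in the secretory values was not tested. That library was above both other knockouts for 11 of 12 type 2 alveolar, 8 of 11 type 1 alveolar and 5 of 6 mesothelium markers. The same held for 17 of the 20 other secretory genes, but for 0 of 10 distal tip and 1 of 10 neuroendocrine markers. Over all genes tested the share was 32%.

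**Figure D5:**
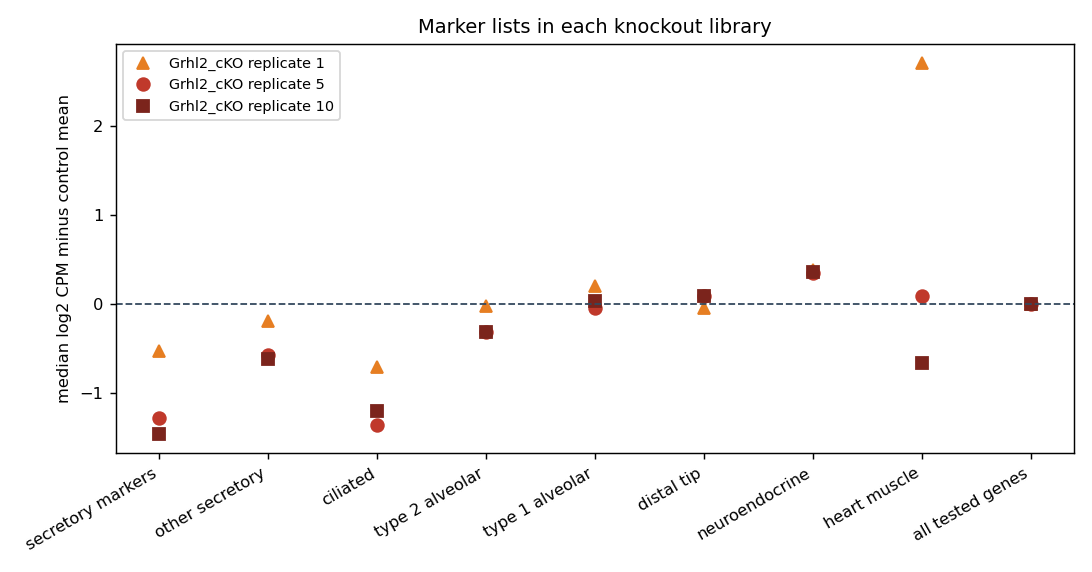
Place of each Grhl2_cKO library by gene list, as the median distance from the control mean in log2 CPM over the tested genes of the list. Replicate 1 is nearer to 0 than replicates 5 and 10 for the 10 secretory markers (-0.53 against -1.28 and -1.47) and for the ciliated markers (-0.71 against -1.36 and -1.21), and stands at 2.72 for the heart muscle genes. It is also nearer to 0 for the other secretory genes (-0.19 against -0.57 and -0.62) and the type 2 alveolar markers (-0.02 against -0.32 and -0.31).

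The genes whose pattern over the 6 libraries was most like that of a marker were looked up for Scgb3a2 and Cbr2, by the root-mean-square difference of log2 CPM after centring each gene, over 11682 genes. For Scgb3a2 the nearest genes outside the markers were Foxj1 (0.17), Trf (0.17) and Deup1 (0.19), and among the markers Cyp2f2 (0.15) and Hp (0.17). Foxj1 is the master regulator of motile cilia, Deup1 serves centriole amplification in multiciliated cells, and Trf encodes transferrin. For Cbr2 the nearest were Dnah12 (0.098), Dnah3 (0.12) and Rsph1 (0.18), which encode parts of the motile cilium, and among the markers Cyp2f2 (0.29). All of these values share the same 6 libraries and the same scaling.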

How the data were processed

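The authors deposited 1 table of raw counts, whole numbers per Entrez gene for 6 libraries, with each gene's length in bases. Per the labels' protocols, RNA of sorted cells was made into stranded libraries of polyadenylated RNA. Per the submitters' processing notes, bcl2fastq 2.17.1.14, featureCounts, edgeR 3.16.5, limma 3.30.12 and the mm10 build were used. Which aligner was used, whether counting used strand and how reads with several matches were treated is not given in the sources used, so near-identical genes can share counts.

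Symbols and positions came from a RefSeq gene table (GRCm38.p6), which matched 25275 identifiers with 99.19% of the counts. Groups came from the genotypes in the labels. The test was edgeR 4.0.16 (R 4.3.3) on the deposited counts: TMM scaling, filterByExpr (minimum count 10, minimum total 15), quasi-likelihood F test without covariates, Benjamini-Hochberg adjustment over 14842 genes and a threshold of 0.05. Of these, 353 were called lower and 180 higher. The fold changes use a prior count of 0.125. Values per library are CPM on TMM-scaled sizes, and distances from the control mean use log2 CPM with a prior count of 2. A count of 3, the limit a count of 0 allows, is 0.177 to 0.224 CPM, and covers counting error only. Replicates differed by more than counting noise (chi-square per degree of freedom 7.72 to 12.9).

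Alternatives were other scalings (RLE, upper quartile, total counts), other filters, DESeq2 1.42.0, limma-voom (limma 3.58.1), robust fitting, sex as a covariate, male libraries only and leaving out each library. Sequence relatives came from blastn on GENCODE transcripts (e-value limit 1e-20). All 10 markers, Grhl2, Epcam, up to 3 genes with the smallest p from each other list, and the 3 nearest genes by pattern are named by rule. Other genes were named after their values were seen. The markers and the 19 gene lists were chosen with earlier results of these data known. 1 gene of these lists is left out of the text.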

Additional observations from a re-analysis of the deposited data

Results flagged for a closer look

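For 3 of the 10 secretory markers the genotype difference in the single female library pair differed from that in the male libraries, by a genotype-by-sex interaction term. The log2 difference, female pair minus male libraries, was 1.53 for Scgb3a2, 1.67 for Cyp2f2 and 1.60 for Hp, each with an edgeR quasi-likelihood adjusted p of 0.0304. In the male libraries (2 per genotype) the knockout level was 33.4% of control for Scgb3a2, 30.4% for Cyp2f2 and 40.4% for Hp. In the female libraries, Grhl2_cKO replicate 1 and control replicate 7, it was 96.4% for Scgb3a2, 97.2% for Cyp2f2 and 123% for Hp. Over all genes tested, 0.115% were called for this difference. With no filter on low counts 6 markers were called for it, against 0.568% of all genes. The residual spread came from the male libraries alone, and the female libraries were assumed to vary like them, so the adjusted p does not test a difference between the sexes. Sex and the single female library of each genotype cannot be told apart. The term was fitted because the knockout library seen between the groups was the female one, so it is no independent check.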

How the results depend on the processing

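The number of secretory markers called lower, 2 of 10, was 6 with no filter on low counts, 1 with robust quasi-likelihood fitting, 8 in male libraries only, 4 with DESeq2 and 1 to 5 when 1 library was left out. It stayed at 2 with the other scalings, the filter on CPM and sex as a covariate, and was 3 with limma-voom. The male set leaves out the highest knockout library for 9 markers and the lowest control for 8, which widens the gap. No alternative called a marker higher, and no log2 fold change of a marker turned positive. Over all genes, the number called lower (353) was 165 to 336 when 1 library was left out, and the number called higher (180) was 77 to 221 then and 87 in male libraries only. The number of other secretory genes called lower (7) was 2 to 8 when 1 library was left out. With no filter, 6 markers in place of 3 were called for the difference between the female pair and the male libraries. The shares over all genes were 0.568% with no filter and 0.115% with the filter. The medians of Grhl2_cKO replicates 1, 5 and 10 were -0.55, -1.29 and -1.48 with a prior count of 0.5. The cause of these shifts was not tested. No paired analysis was possible because the genotypes share only replicate number 1. Gsta3, Scgb1a1, Muc5b and Upk3a had fewer than 100 counts in each library, which limits what can be said of them.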
